A study of Homo sapiens with 12 samples.

Results

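Mitochondrial ribosomes translate the mRNAs that mitochondrial DNA encodes, all of them for subunits of the respiratory chain and ATP synthase. Their RNA comes from mitochondrial DNA, but their proteins are encoded in the nucleus, made on cytosolic ribosomes and imported. The large subunit joins amino acids and holds the exit tunnel, and the small subunit binds the mRNA and reads its codons. Some of these proteins have counterparts in bacterial ribosomes and others are found only in mitochondria. The genes studied here are those whose symbol is MRPL or MRPS followed by a number and at most a letter A, B or C. Of the 6777 genes tested, 73 met this rule, 47 named for the large subunit (MRPL) and 26 for the small subunit (MRPS). MRPL33, MRPL53, MRPS11, MRPS25 and MRPS36 were not analysed here.

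The cells were MDA-MB-231, an established line from a human triple-negative breast cancer. They had been treated for 4 h with 10 nM AZD0095, an inhibitor of the lactate exporter MCT4 (gene SLC16A3), or with the solvent DMSO. RNA-seq and ribosome profiling each had 3 libraries per treatment, 12 libraries in all. Ribosome profiling sequences the mRNA fragments that ribosomes shield from nuclease; here nuclei and mitochondria were taken out of lysates of cycloheximide-treated cells and RNase I was added, so the footprints of these genes are those of cytosolic ribosomes. The series asks how lactate accumulation acts on transcription and translation. Nothing in the labels says whether the replicates of a group were grown apart; the p-values therefore cover only the spread among these libraries, and that spread may be technical. They call the RNA-seq material total RNA in one field and polyadenylated RNA in another, and which applies is not settled here.

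Values are FPKM, fragment counts adjusted for gene length and library depth. Only genes above 1 FPKM in every library were listed (lowest value 1.002), so genes under that level in any library lie outside the comparison. For short genes in footprints 1 read stood for far more: an implied 1 read of MRPS33 in DMSO replicate 2 was 29.2 FPKM. A short gene without a read in any footprint library would thus be left out too, even at a higher average level. The part of this in the footprint results was not tested. Of 8 basal and mesenchymal breast cancer markers, 6 were analysed, with a summed RNA level of 4420 to 4510 FPKM in the DMSO libraries and 4660 to 4770 FPKM in the AZD0095 libraries. Of 9 luminal and epithelial markers, 4 were analysed (374 to 402 and 431 to 448 FPKM), and of 7 fibroblast, blood and endothelial markers, 0 were analysed. The part of these differences in the results was not tested. For reference, DDIT4, an inhibitor of mTORC1 signalling, rose from 12.1 to 60.1 FPKM in RNA and SLC16A3 was at 98.4 and 104 FPKM. Depth of the RNA libraries is unknown, and the footprint libraries held an implied 107087 to 501351 reads. In both groups the RNA library of replicate 1 stood apart for some genes. MRPL42, chosen after its values were seen, was at 90.6 and 87.7 FPKM in these libraries and between 62.6 and 73.3 FPKM in the other 4. Other members, such as MRPL12, did not show this. Over all genes the replicate 1 RNA libraries deviated from their group means together at r = 0.62, those of replicate 2 at 0.09 and those of replicate 3 at 0.49. RNA calls are therefore given with and without the pair of replicate 1 libraries.

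The promoters of 65 of the genes were matched in RefSeq (GRCh38.p14). They are shown because nuclear genes for mitochondrial proteins are known to share binding motifs of the transcription factors NRF1, the ETS family (as GABP) and YY1, and because promoter sequence is a feature that the choice by symbol did not use. The 250 bases before the start are printed for 4 genes the results turn on, with matches to the motifs below in capitals. MRPL34 was the only member called in RNA; it has no match in chr19:17292323-17292572 (plus strand). MRPL27 had a change just short of the threshold and carries ETS matches that begin at positions -52 and -8 from its start, in chr17:50373185-50373434 (minus strand). MRPL54, not printed, was nearer the threshold in RNA (limma adjusted p = 0.063, against 0.066 for MRPL27). It carries an ETS match at position -21 and a TATA box match at -248. MRPL52 had the highest footprint level in DMSO and carries a YY1 match at position -95, in chr14:22829637-22829886 (plus strand), and an ETS match that reaches into the 50 bases after its start. MRPS18B, in chr6:30617590-30617839 (plus strand), has no match before its start and a YY1 match that reaches into the 50 bases after it, and shares its upstream region with a divergent gene that fell.
MRPL34: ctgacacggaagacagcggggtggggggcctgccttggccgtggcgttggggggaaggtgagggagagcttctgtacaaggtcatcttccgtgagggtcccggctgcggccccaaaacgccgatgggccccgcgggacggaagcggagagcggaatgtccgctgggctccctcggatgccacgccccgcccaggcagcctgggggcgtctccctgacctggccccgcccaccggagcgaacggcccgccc
MRPL27: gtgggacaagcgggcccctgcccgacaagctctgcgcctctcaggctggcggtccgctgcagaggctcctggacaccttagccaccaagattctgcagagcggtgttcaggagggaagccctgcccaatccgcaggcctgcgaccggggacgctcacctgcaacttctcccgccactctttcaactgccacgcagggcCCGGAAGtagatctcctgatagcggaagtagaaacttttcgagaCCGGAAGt
MRPL52: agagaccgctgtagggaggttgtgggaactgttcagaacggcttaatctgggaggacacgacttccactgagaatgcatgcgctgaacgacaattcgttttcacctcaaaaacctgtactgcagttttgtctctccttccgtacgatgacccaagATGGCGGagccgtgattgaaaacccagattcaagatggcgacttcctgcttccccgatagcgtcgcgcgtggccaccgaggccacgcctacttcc
MRPS18B: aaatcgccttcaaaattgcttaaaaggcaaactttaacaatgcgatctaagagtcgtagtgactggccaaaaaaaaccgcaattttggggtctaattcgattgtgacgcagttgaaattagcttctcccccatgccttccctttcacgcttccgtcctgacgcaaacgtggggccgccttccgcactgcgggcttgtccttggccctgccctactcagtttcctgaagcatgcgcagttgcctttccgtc

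Motifs were searched on both strands of 300 bases, from 250 before to 50 after the start, and matches of different motifs may overlap. The ETS motif CCGGAAG was in 27 of the 65 promoters (41.5%), against 22.7% of the 5655 tested genes with a promoter and 10.7% of all 27305 promoters. The YY1 motif ATGGCGG was in 24 (36.9%), against 13.0% and 5.72%; in 5 of the 24 it lay wholly before the start. The NRF1 motif, GCGCA and GCGC with any base N between them, was in 8 (12.3%), against 14.2% and 6.28%. The E-box CACGTG, the core bound by MYC, was in 6 (9.23%, against 11.3% of tested genes), and the TATA box TATAAA was in 2 (3.08%, against 5.13%). At least 1 of the NRF1, ETS and YY1 motifs was in 48 promoters (73.8%), against 41.7% of tested genes and 19.5% of all promoters. By subunit, ETS was in 37.5% of 40 large and 48.0% of 25 small subunit promoters, and YY1 in 35.0% and 40.0%. These are descriptions of letters, and no factor's binding was measured. The median GC content was 61.3% for the members and 65.7% for tested genes.

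In the DMSO-treated cells the transcripts were of moderate abundance and close together. The median RNA level was 39.3 FPKM for the 47 large subunit genes and 38.9 FPKM for the 26 small subunit genes, against 23.3 FPKM for all 6777 genes. The members ran from 8.32 to 101 FPKM, with quartiles at 26.7 and 58.1. The highest were MRPS10, a head protein of the small subunit (101 ± 7.80 FPKM, SD, n = 3), MRPL37 of the large subunit (99.8 ± 3.15) and MRPL3, which reaches toward the catalytic centre (94.9 ± 5.05). These 3 overlapped in their library values, so their order is not resolved. The lowest were MRPS21 (8.32 ± 0.867), MRPL57 (10.4 ± 0.560) and MRPS31 (10.9 ± 0.871). Genes with a bacterial counterpart had a median of 43.7 FPKM (44 genes) and those found only in mitochondria 34.1 FPKM (29 genes), a description without a test. RefSeq names 97 pseudogenes after 38 of the members, 9 of them after MRPS21 and 8 after MRPL57, and 17 members overlap another protein-coding gene. The handling of reads shared by such pairs and the use of strand were not given in the sources used here. Values of these genes are uncertain for that reason.

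**Figure D1:**
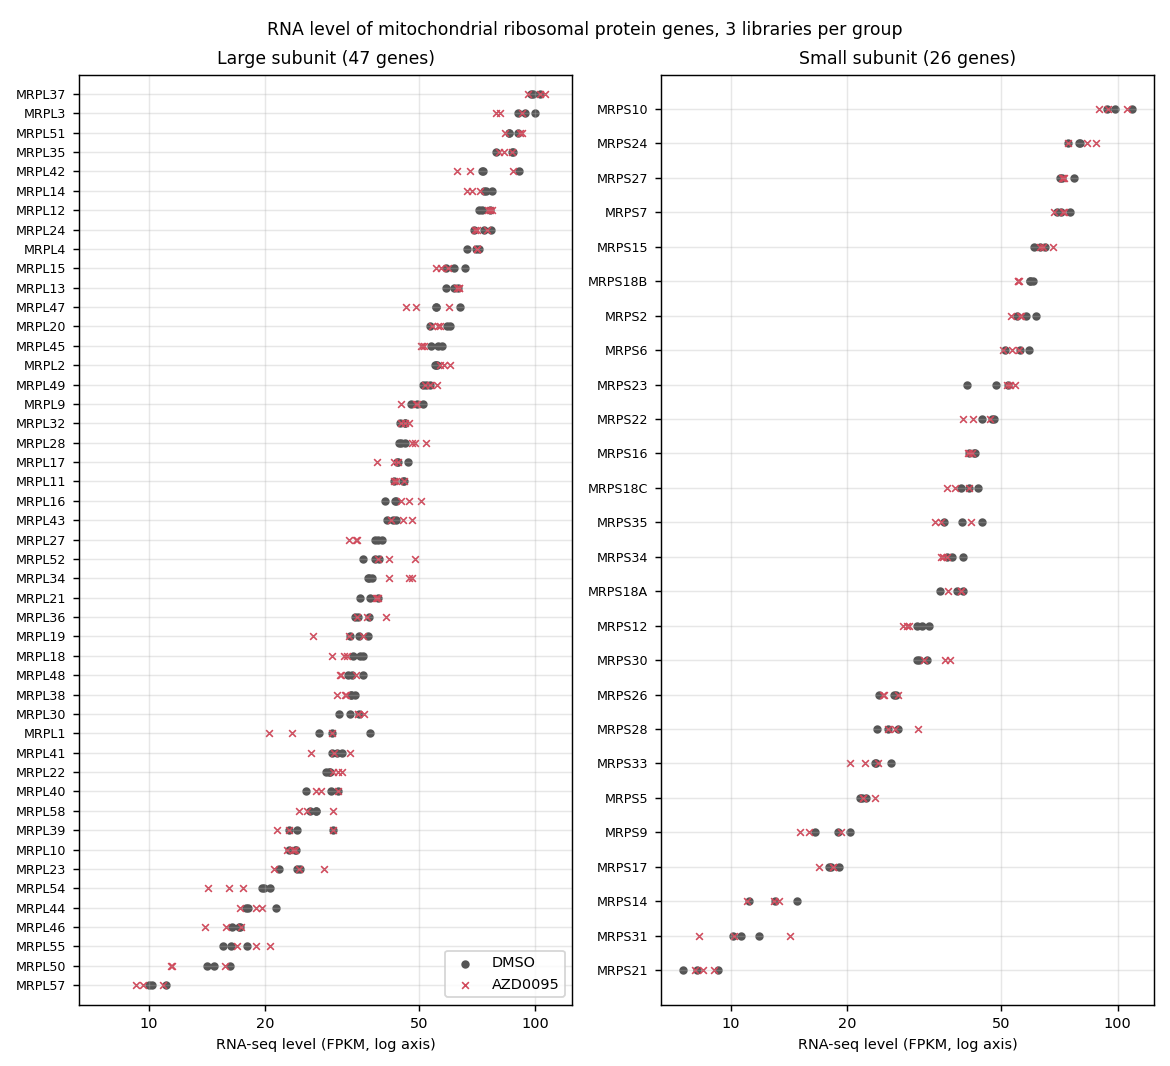
RNA level (FPKM, log axis) of the 47 large and 26 small subunit genes in the RNA-seq libraries: circles are the 3 DMSO libraries and crosses the 3 AZD0095 libraries of a gene. For most genes the circles and crosses overlap; MRPL34, with circles at 36.9 to 37.8 FPKM and crosses at 41.8 to 47.8 FPKM, is an exception.

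The RNA of these genes changed little with treatment. Of the 73, 1 rose and 0 fell in limma at an adjusted p under 0.05 (1.37%), against 8.04% of all genes tested (5.03% higher and 3.01% lower). Log2 fold changes ran from -0.35 to 0.28, with a median absolute change of 0.07 for the members and 0.11 for all genes. The 95% interval of the change lay within 1.5-fold in either direction for 72 of the 73 genes, and within 2-fold for 73. At an unadjusted p under 0.05 there were 9 members (12.3%), against 24.2% of all genes. The DMSO and AZD0095 values did not overlap for 14 members (19.2%), against 29.2% of all genes: 5 were higher, all of the large subunit (17.7% of all genes were higher in this way), and 9 were lower, 6 large and 3 small (11.5%). Changes were positive for 27 members and negative for 46 (37.0% positive, against 52.3% of all genes). Without the replicate 1 libraries, with 2 left per group, 2 members rose and 5 fell, against 9.68% and 10.9% of all genes (20.6% in all).

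MRPL34 is the large subunit counterpart of a small bacterial protein, bL34. Its RNA was at 37.2, 36.9 and 37.8 FPKM in the DMSO libraries and at 47.0, 41.8 and 47.8 FPKM in the AZD0095 libraries. Every AZD0095 library lay above every DMSO library. The log2 fold change was 0.28 ± 0.07 (SE; limma adjusted p = 0.041), and 0.25 (adjusted p = 0.025) without the replicate 1 libraries. Leaving out 1 library ended the call in 5 cases, with adjusted p = 0.098, 0.16 and 0.099 for DMSO replicates 1, 2 and 3, and 0.055 and 0.14 for replicates 2 and 3 of AZD0095; the change then stayed between 0.24 and 0.34. The gene, ENSG00000130312, spans chr19:17292573-17306843 in RefSeq on GRCh38.p14 and overlaps ABHD8, which lies on the opposite strand and was not analysed here.

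The other large rises did not pass. MRPL52 was at 35.8, 39.3 and 38.5 FPKM in DMSO and 48.7, 39.2 and 41.9 FPKM with AZD0095 (log2 fold change 0.18, limma adjusted p = 0.24; 0.06 and 0.57 without the replicate 1 libraries). Its groups overlapped by a single library, AZD0095 replicate 2. MRPS23 of the small subunit was at 52.2, 40.8 and 48.4 FPKM and at 51.8, 52.7 and 54.2 FPKM (0.17, adjusted p = 0.28; 0.26 and 0.025 without the replicate 1 libraries). MRPL16, a large subunit protein with a bacterial counterpart, was at 0.15 (adjusted p = 0.19) and MRPL28 at 0.13 (0.20), both with groups that did not overlap; without the replicate 1 libraries they were at 0.08 (0.41) and 0.15 (0.14).

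The largest negative values belonged to the large subunit. MRPL1, the protein of the mobile L1 stalk that guides spent tRNA out, was at 37.4, 29.7 and 27.6 FPKM in DMSO and at 29.8, 23.5 and 20.5 FPKM with AZD0095. Within each group replicate 1 was the highest, and AZD0095 replicate 1 lay inside the DMSO range. The log2 fold change was -0.35 ± 0.15 (SE, limma adjusted p = 0.20), and -0.37 (0.0057) without the replicate 1 libraries. MRPL54 was at 20.6, 19.6 and 19.8 FPKM and at 16.1, 14.2 and 17.5 FPKM, groups that did not overlap (-0.32 ± 0.09, adjusted p = 0.063; -0.31 and 0.032 without the replicate 1 libraries). MRPL50 was at 16.2, 14.1 and 14.7 FPKM and at 15.7, 11.5 and 11.4 FPKM (-0.22, adjusted p = 0.34; -0.30 and 0.02). MRPL27, whose bacterial counterpart reaches into the peptidyl transferase centre, was at 40.2, 38.5 and 39.1 FPKM and at 34.4, 32.9 and 34.6 FPKM. Its groups did not overlap and its change was -0.20 ± 0.06 (adjusted p = 0.066; -0.20 and 0.051). MRPL3 (-0.17, adjusted p = 0.19) and MRPL47 (-0.17, 0.35) were the other members that fell without the replicate 1 libraries (-0.20 and 0.019; -0.21 and 0.026). MRPL18 (-0.15, adjusted p = 0.19) and MRPL45 (-0.12, 0.20) did not pass with or without them.

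**Figure D2:**
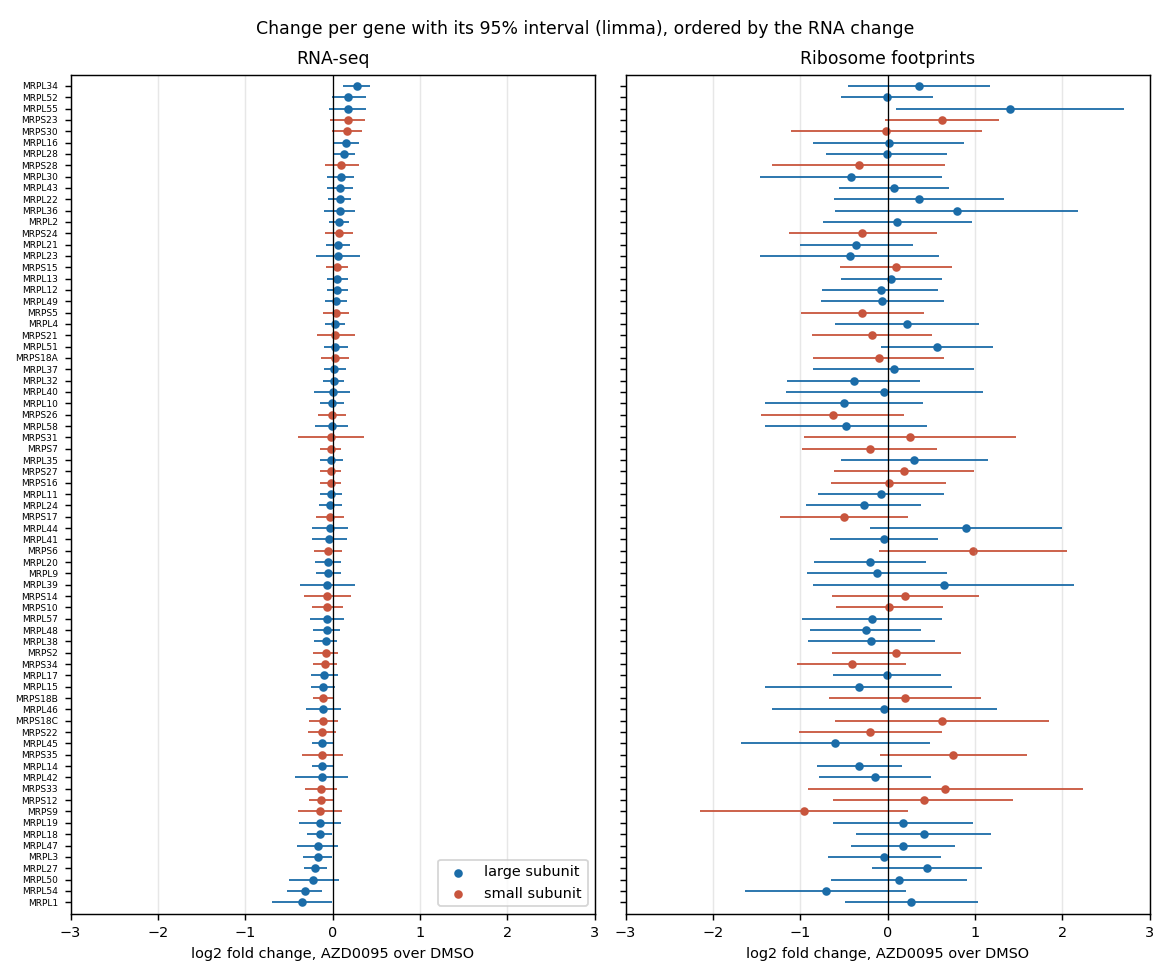
Log2 fold change of AZD0095 over DMSO with its 95% interval (limma) for the 73 genes, in RNA (left) and footprints (right) on the same axis, ordered by the RNA change; blue is the large and red the small subunit. The RNA values sit between -0.35 and 0.28, while the footprint values spread from -0.96 to 1.40 with intervals several times as wide.

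The subunits had nearly the same median change in RNA. It was -0.02 for the large and -0.03 for the small subunit genes, against 0.01 for all genes. Values were positive for 19 of 47 large and 8 of 26 small subunit genes, and ran from -0.14 to 0.17 in the small subunit. Genes with a bacterial counterpart had a median of -0.02 and mitochondria-specific genes -0.04. Places in the ribosome were assigned by hand, and 42 genes were given none, some of which may lie near a named site. Among the genes with no place 1 was called (MRPL34), and among the others 0, against 8.04% of all genes. In limma the changes at the named sites were -0.22 to 0.16. Without the replicate 1 libraries 1 gene with a named site was called, MRPL50 of the exit tunnel (-0.30, limma adjusted p = 0.02), against 20.6% of all genes. Of the 42 genes with no place 2 then rose and 4 fell, MRPL47 among the latter. The 9 proteins assigned to the peptide exit tunnel, among them the membrane anchor MRPL45, spanned -0.22 to 0.08. The 6 of the central protuberance, among them MRPS30, which sits in the large subunit despite its symbol, spanned -0.15 to 0.16. The stalk and GTPase-associated proteins MRPL10, MRPL11 and MRPL12 spanned -0.02 to 0.05. The decoding and head proteins of the small subunit, among them MRPS12, the counterpart of the accuracy protein S12, spanned -0.14 to -0.02. MRPS5, MRPS24 and MRPS35, assigned to the mRNA channel, spanned -0.12 to 0.07, and MRPS27 of the small subunit was at -0.02. MRPL58, a peptidyl-tRNA hydrolase built into the large subunit, was at 26.7 FPKM in both groups. The paralogs MRPS18A, MRPS18B and MRPS18C, of which MRPS18A sits in the large subunit, were at 37.7, 59.8 and 41.4 FPKM in DMSO and at 38.4, 55.4 and 38.4 FPKM with AZD0095.

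Footprints of these genes were more abundant relative to RNA than those of the median gene. In DMSO the median footprint level was 158 FPKM for the large and 121 FPKM for the small subunit genes, against 56.6 FPKM for all genes. The ratio of footprints to RNA, on the log2 scale and with the median of all genes subtracted, had a median of 0.60 over the members, and 52 of the 73 (71.2%) lay above 0, where 50.0% of all genes lie. The large subunit genes had a median of 0.76 (37 of 47 above 0) and the small subunit genes 0.24 (15 of 26). The genes of the subunits overlapped widely, with quartiles at 0.07 and 1.40 for the large and at -0.24 and 1.51 for the small. With AZD0095 the medians were 0.83 and 0.32. The lengths behind the RNA values were not given in the sources used here. The ratio between genes depends on the lengths used for both assays.

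The large subunit median lay above the small in each of the 6 footprint libraries, by 0.70, 0.33 and 0.40 in DMSO and by 0.58, 0.27 and 0.58 with AZD0095. These ranges overlap between treatments. The RNA libraries enter as group means, so the 3 values of a treatment share them. In DMSO the difference between the medians was 0.53, and it was 0.29 without footprint DMSO replicate 1 and 0.23 without footprint DMSO replicate 3. With the subunit taken from the known structure (MRPS18A and MRPS30 counted as large) it was 0.42, and 0.43 with the 5 mitoribosomal proteins under other symbols added. Members are not replicates of a subunit, so no test is given.

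**Figure D3:**
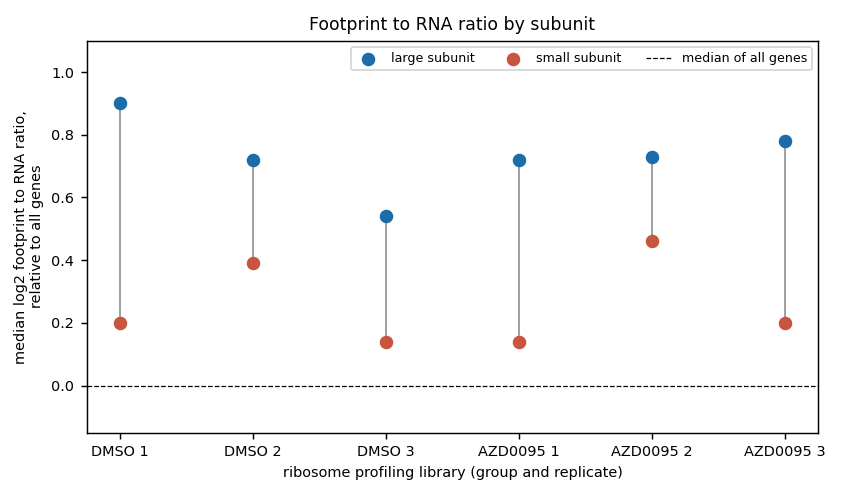
Median log2 footprint to RNA ratio of the 47 large (blue) and 26 small (red) subunit genes in each ribosome profiling library, relative to the median of all genes (dashed line at 0); grey lines join the medians of a library. The large subunit median is the higher in all 6 libraries, at 0.54 to 0.90 against 0.14 to 0.46.

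Single genes spread widely around these medians, from -1.65 to 3.31. The highest ratio belonged to MRPS21, the counterpart of the small bacterial protein bS21, at 3.31 ± 0.12 (SE): its RNA was the lowest of the members and its footprints were at 193, 223 and 177 FPKM in the DMSO libraries. It is also the member with the most named pseudogenes, whose part in the RNA level was not tested. MRPL52 followed at 3.00 ± 0.24, with 491, 855 and 706 FPKM of footprints, the highest mean footprint level of the members in DMSO. MRPL41 was at 2.34 ± 0.27, with 237, 401 and 423 FPKM of footprints. The lowest ratios belonged to MRPS6 (-1.65 ± 0.39), MRPL37 (-1.39 ± 0.36) and MRPL45 (-1.36 ± 0.33). MRPS6 had 59.5, 22.9 and 38.3 FPKM of footprints at 55.3 FPKM of RNA, and its gene overlaps SLC5A3 on the same strand. MRPL37 combined the second highest RNA of the members with 116, 50.2 and 92.3 FPKM of footprints.

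**Figure D4:**
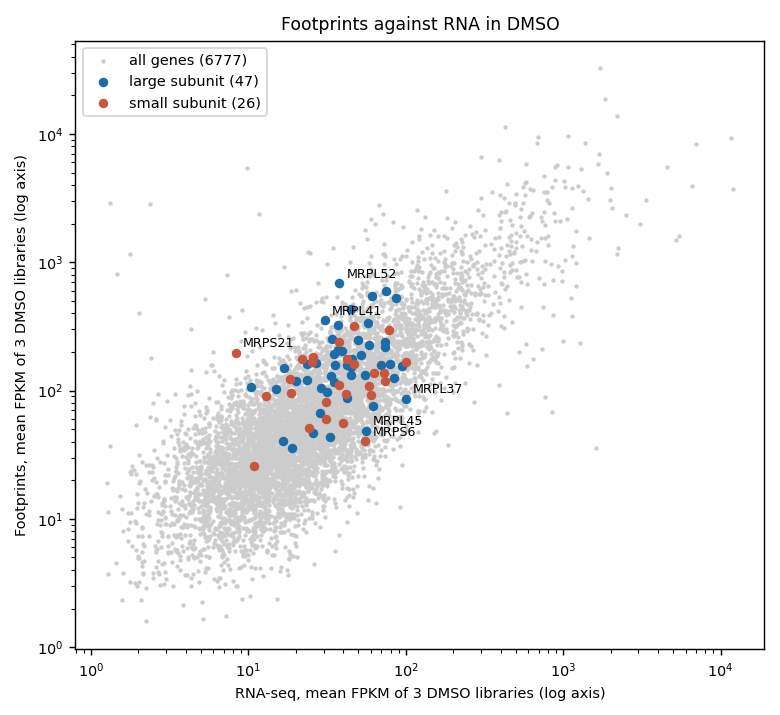
Mean footprint level against mean RNA level in DMSO (FPKM, log axes) for the 6777 genes (grey) and the large (blue) and small (red) subunit genes; the 3 highest and 3 lowest ratios are named. The members lie in a narrow band of RNA, from 8.32 to 101 FPKM, and spread over 25.8 to 684 FPKM in footprints.

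RNA and footprint levels followed each other less closely among the members than among all genes: Pearson's r of the log2 levels in DMSO was 0.36 over 73 members and 0.80 over 6777 genes, which cover a wider range of levels (SD of log2 RNA 0.78 and 1.60). This is across genes in the same libraries, and genes are not independent replicates. Pairs of footprint libraries within a group correlated at 0.66 to 0.83 over the members and at 0.85 to 0.92 over all genes. The part of this noise in the lower r of the members was not tested. The ratios kept their order between treatments, with r = 0.91 over the members and 0.85 over all genes.

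No footprint change passed the test. Limma called 0 of the 73 genes, against 0% of all genes tested; at an unadjusted p under 0.05 there was 1 member (1.37%), against 7.82% of all genes. Log2 fold changes ran from -0.96 to 1.40, with a median standard error of 0.37, against 0.07 for RNA. The 95% interval lay within a 2-fold change in either direction for 33 members and reached past it for the others. The DMSO and AZD0095 values did not overlap for 5 members (6.85%), against 13.0% of all genes: MRPS35 and MRPL44 were higher (7.19% of all genes) and MRPL54, MRPS17 and MRPS26 lower (5.77%).

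MRPL55, the counterpart of bacterial bL31, had the largest positive value, 1.40 ± 0.60 (SE; limma adjusted p = 0.63). Its footprints were at 41.0, 47.4 and 32.3 FPKM in DMSO and at 36.0, 216 and 154 FPKM with AZD0095. AZD0095 replicate 1 lay inside the DMSO range and the other AZD0095 libraries far above it. The change was 2.17 without AZD0095 replicate 1 and 0.89 without AZD0095 replicate 2. MRPS6 was at 0.98 (adjusted p = 0.68), with 52.2, 102 and 78.4 FPKM with AZD0095. MRPL44, which carries an RNase III fold, was at 39.3, 18.2 and 50.6 FPKM and at 62.0, 53.7 and 73.7 FPKM (0.90, adjusted p = 0.70). Without DMSO replicate 2, the lowest library of both genes, the change was 0.63 for MRPS6 and 0.48 for MRPL44.

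On the negative side, MRPS9 of the small subunit head was at 46.3, 185 and 55.7 FPKM in DMSO and at 38.4, 49.6 and 32.9 FPKM with AZD0095 (-0.96, limma adjusted p = 0.71). A single library, DMSO replicate 2, was high; without it the change was -0.35. MRPL54 was at 72.4, 188 and 93.3 FPKM and at 63.6, 72.2 and 62.6 FPKM (-0.71, adjusted p = 0.72; -0.31 without DMSO replicate 2, again the high library); it is the gene whose RNA was at -0.32. MRPS26 was at 175, 202 and 169 FPKM and at 65.7, 164 and 148 FPKM (-0.63, adjusted p = 0.72; -0.22 without AZD0095 replicate 1, the low library). The median footprint change was -0.04 for the large subunit, 0.02 for the small and 0.04 for all genes, and the sign of the difference between the subunits turned with the library left out (-0.18 to 0.11).

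The change in the ratio, the interaction of assay and treatment over the 12 libraries, was called for 0 members by limma, against 0% of all genes tested. The model gives a gene 1 spread over both assays, though the median replicate SD of members in DMSO was 0.06 in RNA and 0.45 in footprints. The median standard error was 0.35 for the ratio and 0.37 for footprints alone, so p-values of the ratio may be too small. At an unadjusted p under 0.05 there were 3 members (4.11%), against 8.53% of all genes. They were MRPS35 of the mRNA channel (0.87 ± 0.31, SE; limma adjusted p = 0.47), MRPL27 (0.65 ± 0.28; 0.56) and MRPS6 (1.03 ± 0.45; 0.56). MRPS35 had footprints at 48.4, 56.0 and 62.3 FPKM in DMSO and at 84.9, 119 and 81.7 FPKM with AZD0095, groups that did not overlap, while its RNA was at 40.0 and 36.8 FPKM. In MRPL27 footprints were at 211, 150 and 252 FPKM and at 254, 327 and 247 FPKM, against RNA groups that lay lower with AZD0095. The largest values in either direction were 1.23 for MRPL55, 1.03 for MRPS6 and 0.93 for MRPL44, and -0.82 for MRPS9, -0.62 for MRPS26 and -0.51 for MRPL30. Single footprint libraries moved several of them: without DMSO replicate 2 MRPS9 was at -0.21 and MRPL44 at 0.51, without AZD0095 replicate 1 MRPS26 was at -0.21 and MRPL55 at 2.00, and without AZD0095 replicate 2 MRPL55 was at 0.73. Medians were -0.02 for the large subunit, 0.04 for the small and 0.03 for all genes.

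How many reads stand behind a footprint value could be recovered for 27 members, 12 large and 15 small, whose values are whole multiples of 1 read. In the DMSO libraries they had a median of 7, 8 and 12 reads, and in the AZD0095 libraries 9, 17 and 38; the AZD0095 libraries were 2.03 times as deep on average, and 1.27 times without AZD0095 replicate 3. Reads per gene and library ran from 1 to 129. MRPS6 had 3, 1 and 3 reads in DMSO and 3, 9 and 16 with AZD0095, so its ratio and its change rest on few reads. MRPS33 had an implied 3, 1 and 3 reads and then 6, 12 and 3, at an implied length of 320 bases. Implied lengths were not checked against coding sequences, and the shortest that fitted was taken. MRPS35 had 6, 6 and 12 reads and then 12, 26 and 41. At the upper end MRPL14 had 30, 32 and 58 reads and then 33, 40 and 129, and its log2 values had an SD of 0.18 in DMSO. These reads carry no molecular identifiers, so copies of the same molecule cannot be told from separate molecules.

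**Figure D5:**
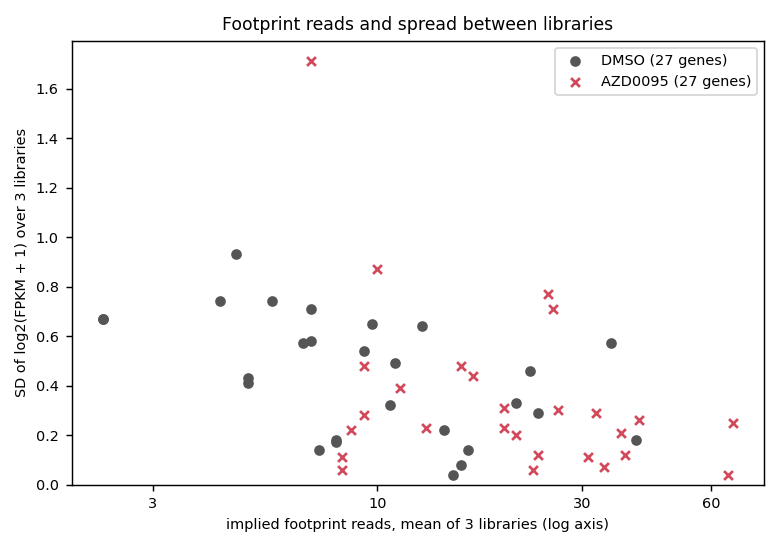
Standard deviation of log2(FPKM + 1) over the 3 libraries of a group against the mean implied footprint reads (log axis) for the 27 genes with recovered reads; circles are DMSO and crosses AZD0095. The genes with the fewest DMSO reads, MRPS6 and MRPS33 at a mean of 2.3, have an SD of 0.67 and MRPL14 at a mean of 40.0 has 0.18, but there is no steady order: MRPL17 at 35.0 reads has 0.57, and MRPL50 at 7.3 and MRPS21 at 8.0 have 0.14 and 0.17.

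Other genes of mitochondrial translation were followed by lists, whose counts stand against 8.04% of all genes called with every RNA library and 20.6% without the replicate 1 libraries. Genes named below as called only in the latter were chosen after their values were seen. The 5 mitoribosomal proteins under other symbols were not called in RNA, with changes of -0.08 to 0.07 in limma (adjusted p of at least 0.53), and 0 were called without the replicate 1 libraries. DAP3, the GTP-binding protein of the small subunit, was at 103 and 108 FPKM, PTCD3 at 22.1 and 21.0, AURKAIP1 at 60.4 and 62.0, CHCHD1 at 25.2 and 25.7, and GADD45GIP1 of the large subunit at 39.6 and 40.9 FPKM. Their DMSO footprint to RNA ratios spanned -0.99 for DAP3 to 2.47 for GADD45GIP1. Of 17 mitochondrial translation factors 12 were analysed: 1 rose and 11 did not pass. It was MTRFR, a release factor that rescues stalled ribosomes, at 20.3 ± 1.90 and 27.2 ± 1.47 FPKM (SD, n = 3; 0.40, limma adjusted p = 0.026), a call that ended without replicate 2 of DMSO (0.11) or of AZD0095 (0.11) and without replicate 3 of DMSO (0.078) or of AZD0095 (0.054). Without the replicate 1 libraries 1 of the 12 rose (MTRFR, 0.43) and 5 fell in limma: the initiation factors MTIF2 (-0.44, adjusted p = 0.0014) and MTIF3 (-0.37, 0.0097), the elongation factor GFM1 (-0.26, 0.032), TACO1, an activator of COX1 translation (-0.26, 0.026), and LRPPRC, which stabilises mitochondrial mRNAs (-0.27, 0.0074). With every library these 5 had adjusted p of 0.074 to 0.25. Of 27 genes for ribosome assembly and rRNA modification 21 were analysed: 1 fell and 20 did not pass. It was RPUSD4, a pseudouridine synthase of mitochondrial rRNA, at 14.3 ± 0.648 and 10.9 ± 0.0671 FPKM (-0.37, adjusted p = 0.021), a call lost without any RNA library but AZD0095 replicate 1 (0.053 to 0.11) and kept without both replicate 1 libraries (0.0072). Without those libraries 1 of the 21 rose, RPUSD3 (0.31, adjusted p = 0.014), and 2 fell, RPUSD4 (-0.38) and FASTKD2, an RNA-binding protein of large subunit assembly (-0.33, 0.011).

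Genes for mitochondrial transcription and for regulators of these nuclear genes were not called with every RNA library. Of 9 genes of mitochondrial transcription 5 were analysed and 0 passed, against 8.04% of all genes. TFAM, which packages mitochondrial DNA and starts its transcription, was named after its value was seen. It was at 46.9 ± 4.92 and 34.2 ± 5.48 FPKM (SD, n = 3), and its change was -0.45 (limma adjusted p = 0.056). Of 15 alternative fits, 6 called TFAM lower and 9 did not call it, with limma adjusted p up to 0.2. The calls included those without the replicate 1 libraries (-0.51, 4.0e-04), with median centring (0.033) and with quantile normalization (0.031). Without the replicate 1 libraries 3 of the 5 fell in limma, where 10.9% of all genes did. They were TFAM, the transcription initiation factor TFB2M (-0.47, adjusted p = 8.1e-04) and the elongation factor TEFM (-0.36, 0.0081). Of 8 transcription factors and coactivators of nuclear mitochondrial genes 7 were analysed and 0 passed, against 8.04% of all genes. Without the replicate 1 libraries 2 fell in limma, where 10.9% of all genes did. They were GABPA, the DNA-binding subunit of GABP (-0.39, adjusted p = 0.027), and the coactivator PPRC1 (-0.32, 0.0076). In footprints and in the ratio 0 genes of these 5 lists passed, where 0% of all genes did.

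A divergent neighbour, a gene that starts within 1000 bases upstream and runs the other way, was found for 21 of the 65 genes with a promoter (32.3%), against 26.4% of tested genes. Of these neighbours 7 were tested, and 1 was called in RNA, against 8.04% of all genes. Without the replicate 1 libraries 2 were called, against 20.6%: PPP1R10 (-0.82, limma adjusted p = 1.4e-05) and SKA3, a kinetochore protein whose gene starts 106 bases from MRPL57 (-0.47, 6.9e-04; -0.41 and 0.14 with every library). PPP1R10, a nuclear regulatory subunit of protein phosphatase 1, starts 597 bases from MRPS18B and was named after its value was seen. Its RNA, at 22.5 ± 0.674 FPKM in DMSO, fell to 12.5 ± 0.627 FPKM with AZD0095 (mean ± SD, n = 3; log2 fold change -0.80, limma adjusted p = 6.7e-04), whereas MRPS18B was at 59.4, 59.4 and 60.6 FPKM in DMSO and 55.3, 55.7 and 55.2 FPKM with AZD0095 (-0.11, adjusted p = 0.22). The MRPS18B groups did not overlap, and its change did not pass. Over the 7 pairs the median change was -0.04 for the neighbours and -0.07 for the members.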

How the data were processed

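Per the labels, RNA and ribosome-protected fragments came from MDA-MB-231 cells; the authors deposited FPKM values per gene. The submitters' processing notes name fastp, STAR, Bowtie2 and hg38; their roles, like the read counter, were not given in the sources used here. A file listed 6785 genes, 8 of them repeats. The filter of a mean FPKM of at least 1 removed none. RNA and footprints were compared on log2(FPKM + 1) with limma 3.58.1 (R 4.3.3), two-sided, with a variance trend. The ratio was the interaction of assay and treatment over 12 libraries, with 1 spread per gene over both assays. P-values were adjusted by Benjamini-Hochberg over 6777 genes. The pseudocount of 1 understates changes of low genes. Footprint reads were counted as whole within 0.025 of a read, for 17.8% of genes (1209), taking coding lengths 1 short of a multiple of 3. The fits and the read recovery were tested on simulated data. Members and lists were chosen with earlier results of these data known. Named were called members, the 3 largest changes each way, the 3 highest and lowest levels and ratios, proteins of named sites, paralogs, and called genes of 5 lists; others are marked. Alternatives changed pseudocount, filter, scaling, batch, weights, subunit assignment and libraries.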

Additional observations from a re-analysis of the deposited data

How the results depend on the processing

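The count of members called in RNA, 1 with every library, was 6 with a replicate block, 6 with replicate 1 as a batch term and 7 without both RNA replicate 1 libraries, an alternative chosen after seeing the data. With a library left out it ran from 0 to 6, and it was 0 without each DMSO replicate and without AZD0095 replicate 2 or 3, where 1.48% to 4.13% of all genes were called, and 6 without AZD0095 replicate 1, where 16.4% were. The block and the batch term called the same 6 genes: MRPL34 rose and MRPL1, MRPL3, MRPL27, MRPL47 and MRPL54 fell, where 23.9% and 24.5% of all genes were called. Replicate numbers were not taken as pairs: same-numbered RNA libraries deviated together at r = 0.62, 0.09 and 0.49, footprint libraries at 0.01, -0.02 and 0.09, and DMSO replicate 2 correlated best with AZD0095 replicate 3 in RNA. In footprints and the ratio 0 members were called under each alternative run. The large minus small median change was 0.01 in RNA (0.00 to 0.06 with a library left out), -0.05 in footprints (-0.18 to 0.11) and -0.06 in the ratio (-0.11 to 0.09), and the DMSO ratio difference of 0.53 ran from 0.23 to 0.57; the cause was not tested. Of 738 alternative values of single named genes, 651 stayed on their side of the threshold, 73 became called, 14 lost the call and 0 changed direction. Many of these genes were chosen for their values in the main fit, and the alternatives share most libraries. The alternative without the filter could not differ from the main fit, because the filter removed no gene. In footprints and the ratio none of them was called in any fit. The count therefore does not measure how stable an unselected gene is. Recovered footprint reads per gene and library ran from 1 to 129, and depth of the RNA libraries is unknown.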

Other observations

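The median RNA level of the large subunit genes moved while the gene-by-gene changes centred near 0. It was 40.2, 39.3 and 39.1 FPKM in the DMSO libraries and 45.5, 41.8 and 43.0 FPKM in the AZD0095 libraries, without overlap, while the small subunit medians were 40.6, 38.5 and 38.9 and then 39.0, 35.9 and 36.4 FPKM. Large minus small was -0.01, 0.03 and 0.00 on the log2 scale and then 0.22, 0.21 and 0.23. Taken gene by gene the median change was -0.02 and -0.03. The gene at the middle of the large subunit was MRPL27 in DMSO and MRPL52 with AZD0095. The share of summed FPKM held by the members was 0.734%, 0.689% and 0.701% and then 0.726%, 0.671% and 0.675% in RNA, groups that overlap. In footprints it was 0.966%, 0.973% and 0.985% and then 0.992%, 1.02% and 1.02%, every AZD0095 library above every DMSO library. A sum gives most weight to the highest genes. Gene by gene the median footprint change of the members was -0.01, with 34 positive and 39 negative.

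MTRFR, whose RNA rose, had footprints of 98.8 ± 43.1 FPKM in DMSO and 46.9 ± 11.1 FPKM with AZD0095 (SD, n = 3). Its ratio changed by -1.40 ± 0.42 (SE; limma adjusted p = 0.47), which did not pass.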
